A study of Homo sapiens with 6 samples.

Results

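Antisense genes are transcribed from the DNA strand opposite to another gene. Many start close to the start of a protein-coding gene and run away from it, and many others lie across its exons or introns. Most make no protein, they are often spliced and polyadenylated, and a few, such as TUG1, have been studied as RNAs in their own right, among them in glioma cells. The genes described here are the antisense genes that KNS42 cells expressed well. They were chosen by their measured level, with the biotype that the deposited table gives each gene. A gene was a member when its biotype was antisense and its mean over all libraries was at least 2 FPKM (fragments per kilobase of gene, scaled to the size of the library). ZFAS1, EPB41L4A.AS1 and the host genes of small nucleolar RNAs and microRNAs were left out by name, which removed 6 genes that were otherwise above the limit. In this way 555 of the 58174 genes of the table were members. The table had 5525 antisense genes in all, of which 1959 were at 0 in every library. The members just inside the limit were AL590369.1 and AL683820.1, with means of 2.01 and 2.01 FPKM, and the genes just outside it were AL020996.1 and AC131235.3, with means of 2 and 1.99 FPKM.

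KNS42 is a cell line derived from a pediatric glioblastoma (GBM). The cells had been transfected either with a pool of siRNAs against MSI1 (siMSI1, n = 3) or with a control siRNA (siC, n = 3), and their polyadenylated RNA was taken after 72 h. MSI1 is an RNA-binding protein of neural stem cells, and the question was how the loss of it changed RNA levels. All libraries came from this 1 line, the labels do not say whether the replicates were separate cultures, and p-values then measure only the spread between these libraries. MSI1 itself stood at 63.7, 61.9 and 66.9 FPKM in siC and 12.1, 12.3 and 11.2 FPKM in siMSI1, the first check of the labels (log2 fold change -2.43 ± 0.07, adjusted p = 8.71e-06). The libraries held 13087025 to 18024080 reads on genes. SOX2, NES, VIM and CD44, markers of neural stem and glioblastoma cells, were between 65.5 and 950 FPKM on average, and S100B was at 0 in every library. Of the other glial markers looked up, FABP7 stood at 36.1 FPKM in siC and 16.6 FPKM in siMSI1 (limma, log2 fold change -1.12, adjusted p = 0.000274). GFAP stood at 1.63 FPKM in siC and 4.61 FPKM in siMSI1 (limma, log2 fold change 1.46, adjusted p = 0.000905). The immune and endothelial markers PTPRC, CD14, CD3E, PECAM1 and VWF were all under 0.3 FPKM. In RNA from whole cultures, fewer cells of a kind and less RNA per cell cannot be told apart.

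Most members had no gene name beyond a clone identifier. Of the 555, 438 carried only the name of a genomic clone, 106 carried the suffix AS after a gene name, and 3 of these 106 were named after a HOX cluster. Their means ran from 2.01 to 450.2 FPKM with a median of 3.92, and 77 members reached 10 FPKM. They took 0.455% to 0.547% of the reads of a library. The median member was covered by 50.3 reads per library and was 647 bases long, against 372 reads and 4053 bases for the median of all tested genes. The genes were placed on GRCh38 with the GENCODE 44 annotation, which held 542 of the members. Of these, 508 overlapped a protein-coding gene of the opposite strand, and 175 had the start of an opposite-strand coding gene within 1000 bases of their own. Only 10 had neither.

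**Figure D1:**
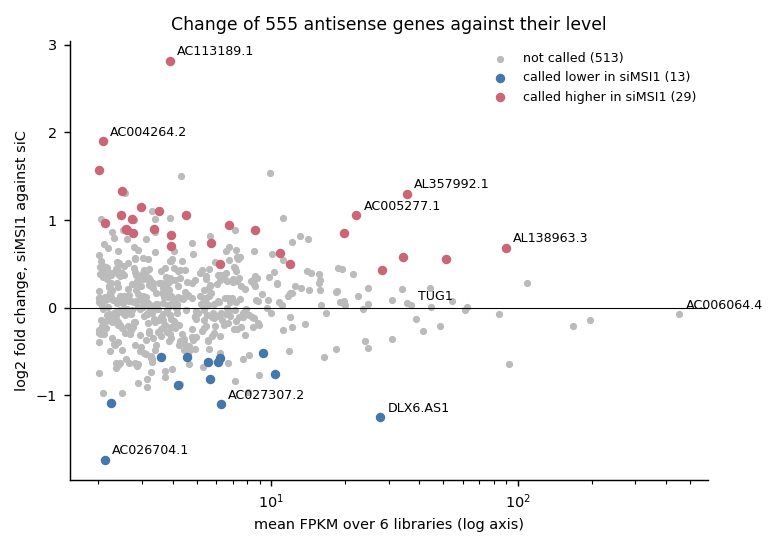
Log2 fold change of siMSI1 against siC (vertical axis) against mean FPKM over the 6 libraries (horizontal log axis) for the 555 antisense genes, each point a gene. The 13 genes called lower and 29 called higher are coloured, and the most abundant gene, AC006064.4, lies near 0.

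In total, 42 of the 555 antisense genes (7.57%) changed upon MSI1 knockdown, that is, were called at an adjusted p of at most 0.01 (limma with Benjamini-Hochberg adjustment over 15069 genes), 13 of them lower and 29 higher. Over all tested genes the share was 11.0%, with 5.83% lower and 5.15% higher, against 2.34% lower and 5.23% higher among the members. The share of members called was thus below that of the table as a whole, where the standard error of a fold change was also smaller (median 0.12 against 0.19 for the members). The median log2 fold change of the members was 0.07, and that of all tested genes was 0.00. The values of siC and siMSI1 did not overlap in 161 members (29.0%), against 42.8% of all tested genes. The 853 antisense genes tested below the limit of 2 FPKM had a median of 11.8 reads each, and 13 of them (1.52%) were called. Since the limit applied to the mean over both groups, 19 members reached it only in siC and 45 only in siMSI1. These held 13 of the 42 calls, and their own change helped to make them members. AC026704.1 and AL391069.2 reached the limit only in siC. The others, which reached it only in siMSI1, were AC113189.1, AC004264.2, AL683820.1, AL160408.2, LINC01181, AC008443.2, NAPA.AS1, FUT8.AS1, AC130456.5, AP003550.1 and AL161421.1. Among the 491 members at 2 FPKM or more in both groups, 11 were lower and 18 were higher. The number of calls fell to 12 without siC replicate 1, to 20 without siMSI1 replicate 1, to 22 without siMSI1 replicate 2, to 25 without siC replicate 2 and to 26 without siC replicate 3. It was 34 without siMSI1 replicate 3.

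**Figure D2:**
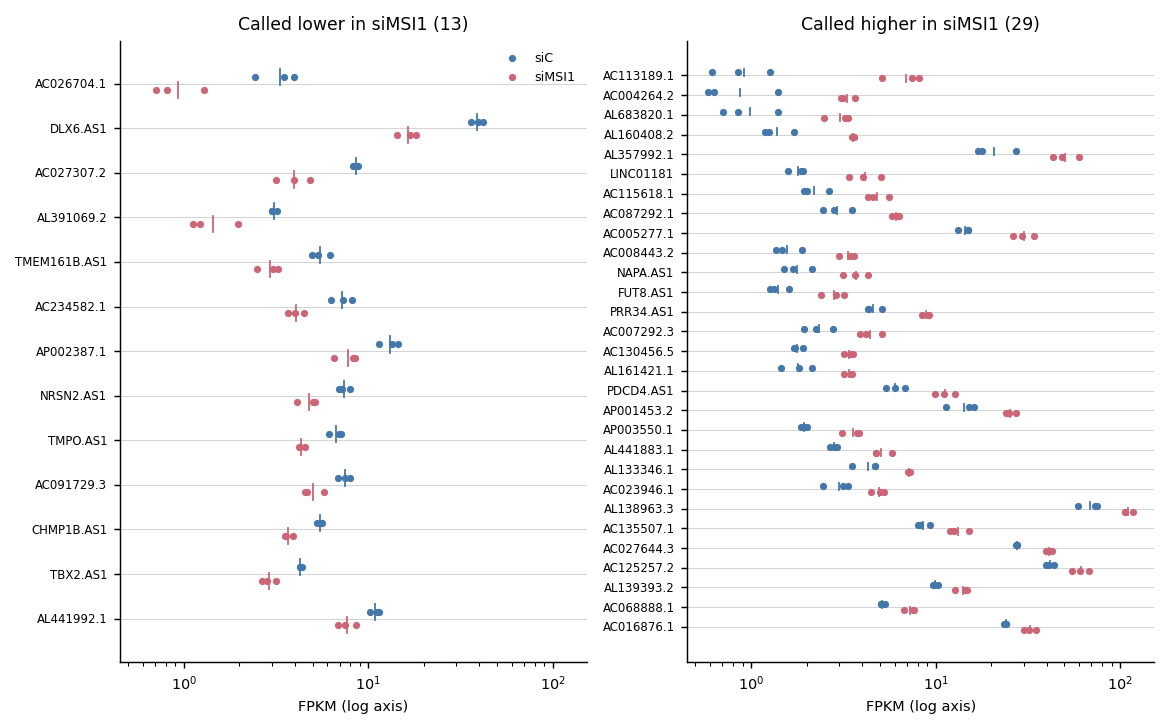
FPKM (log axis) of the 42 called antisense genes in each library, points for the 3 siC and 3 siMSI1 libraries and a vertical tick for the mean of each group. DLX6.AS1 has the largest FPKM of the 13 lower genes and AL138963.3 that of the 29 higher genes, and in all 42 genes the groups lie apart.

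The most abundant gene that fell was DLX6.AS1. DLX6.AS1, also known as Evf2, is a long noncoding RNA of the developing forebrain. It starts between DLX5 and DLX6, homeobox transcription factors of inhibitory neurons, and runs across DLX6 and beyond it, away from DLX5. It lies at chr7:96955141-97014088, minus strand. It stood at 39.5, 41.8 and 36.1 FPKM in siC and 16.8, 18.2 and 14.3 FPKM in siMSI1. All 3 siMSI1 libraries were thus under 20 FPKM and all 3 siC libraries above 36 FPKM, a fall to 42% (log2 fold change -1.25 ± 0.10, adjusted p = 0.000366). It rested on at least 3412 reads per library and was called in 6 of the 6 fits with 1 library left out. Only 6.21% of its exonic bases lay in exons of the opposite strand.

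The coding genes of this locus fell as well. DLX6, the sense gene in its name, stood at 39.7, 40.2 and 39.8 FPKM in siC and 31.4, 28.7 and 29.7 FPKM in siMSI1 (log2 fold change -0.41 ± 0.06, adjusted p = 0.00311). DLX5, the neighboring gene of the pair, stood at 103, 102 and 105 FPKM in siC and 64, 63.9 and 68.4 FPKM in siMSI1 (log2 fold change -0.66 ± 0.06, adjusted p = 0.000522). In both, the 2 groups did not overlap. The related pair on chromosome 2, DLX1 and DLX2, chosen after its values were seen, fell too, by 0.99 and 0.47 on the log2 scale (adjusted p = 0.000206 and 0.00311). Among the 5 genes the log2 fall of DLX6.AS1 was the largest, and its difference from DLX1 was not tested. In the test of ratios given further on, the log2 ratio of DLX6.AS1 to DLX6 fell by 0.84 and missed the threshold (adjusted p = 0.0418).

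**Figure D3:**
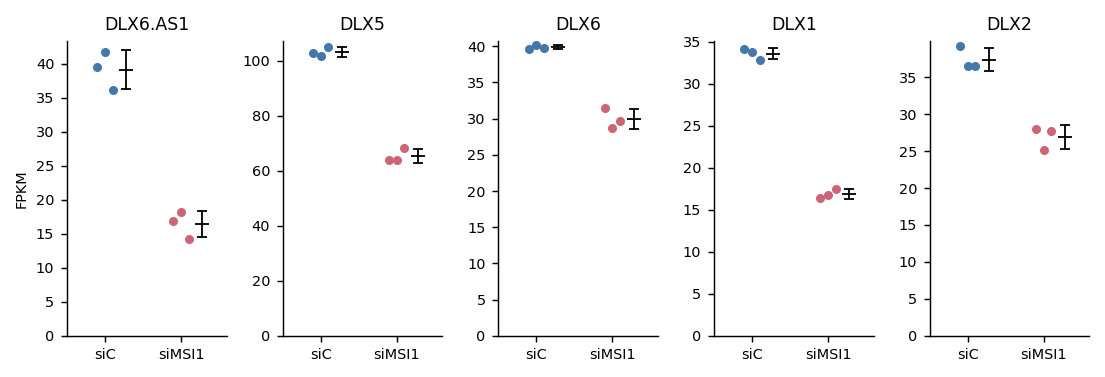
FPKM of DLX6.AS1 and of the coding genes DLX5, DLX6, DLX1 and DLX2 in the 3 siC and 3 siMSI1 libraries (points), with the mean and SD of each group beside them in black. In each of the 5 genes the siMSI1 libraries lie below the siC libraries.

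The promoter of DLX6.AS1 is printed because its transcript fell most among the abundant members. The window runs from 250 bases before to 50 bases after the RefSeq start on GRCh38.p14 (chr7:97014016-97014315, minus strand). Capitals mark TAAT on either strand (ATTA is the same word read on the other strand), the core word bound by homeodomain proteins, and overlapping matches run together.
DLX6-AS1: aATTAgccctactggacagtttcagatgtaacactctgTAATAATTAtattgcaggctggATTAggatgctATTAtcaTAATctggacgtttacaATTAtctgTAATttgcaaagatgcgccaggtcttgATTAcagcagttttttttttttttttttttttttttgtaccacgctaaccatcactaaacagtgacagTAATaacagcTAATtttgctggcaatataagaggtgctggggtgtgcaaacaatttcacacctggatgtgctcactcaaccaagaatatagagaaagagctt
The window held 12 matches to TAAT. At least 1 was found in 50.3% of the 34796 distinct RefSeq windows of this length, and 12 or more in 0.161% of them. It held 3 CG dinucleotides, against a median of 14 over all windows. A match is a description of the letters only, and binding was not measured.

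The largest fall in relative terms was that of AC026704.1, annotated as CCNO-DT, a transcript that starts beside CCNO and runs the other way. AC026704.1 reached a mean of 2 FPKM only in siC. CCNO encodes cyclin O, which cells need to make many cilia. AC026704.1 (chr5:55233934-55295201, plus strand) stood at 3.99, 3.52 and 2.44 FPKM in siC and 0.705, 1.29 and 0.814 FPKM in siMSI1. The highest siMSI1 library was well below the lowest siC library, with 27 to 49 reads in siC and 8 to 13 reads in siMSI1 (log2 fold change -1.73 ± 0.25, adjusted p = 0.00289). It was called in 2 of the 6 fits with 1 library left out (adjusted p 0.00359 to 0.0153). CCNO stood at 8.49, 7.91 and 8.03 FPKM in siC and 6.11, 4.6 and 5.08 FPKM in siMSI1 and fell by 0.63 on the log2 scale (adjusted p = 0.0062). The RefSeq starts of both genes were 286 bases apart. DHX29, an RNA helicase whose gene the transcript crosses, stood at 12.5, 13.9 and 11.3 FPKM in siC and 12.4, 13.7 and 11.4 FPKM in siMSI1 (log2 -0.00, adjusted p = 0.986).

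The start regions of both genes are printed because 1 stretch of DNA lies upstream of both RNAs. Capitals mark the 215 bases that fall in both windows, read on opposite strands (chr5:55233644-55233943, plus strand for CCNO-DT and chr5:55233559-55233858, minus strand for CCNO, GRCh38.p14).
CCNO-DT: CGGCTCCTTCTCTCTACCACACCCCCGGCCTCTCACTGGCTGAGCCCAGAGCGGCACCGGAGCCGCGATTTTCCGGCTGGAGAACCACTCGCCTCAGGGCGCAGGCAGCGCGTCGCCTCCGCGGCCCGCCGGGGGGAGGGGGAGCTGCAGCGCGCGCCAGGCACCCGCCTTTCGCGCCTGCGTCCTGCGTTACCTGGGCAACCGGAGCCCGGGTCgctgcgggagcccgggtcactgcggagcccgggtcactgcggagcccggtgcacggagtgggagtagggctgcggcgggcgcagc
CCNO: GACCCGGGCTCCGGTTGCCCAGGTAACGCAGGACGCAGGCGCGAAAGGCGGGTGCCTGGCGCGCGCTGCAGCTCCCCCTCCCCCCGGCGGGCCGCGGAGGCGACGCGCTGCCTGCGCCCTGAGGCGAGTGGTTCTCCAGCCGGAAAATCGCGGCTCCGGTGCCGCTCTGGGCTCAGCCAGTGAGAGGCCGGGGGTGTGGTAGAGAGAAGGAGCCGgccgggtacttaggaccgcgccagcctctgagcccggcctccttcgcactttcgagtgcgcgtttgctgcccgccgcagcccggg
Each window held 37 CG dinucleotides, and no window held any of the 3 words counted in the next paragraph.

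Opposite-strand coding starts within 1000 bases were common among the members. The distance was taken in either direction. Some of these members thus start apart from the coding gene, as AC026704.1 does from CCNO, and others inside it, as AC004264.2 does in LIF. Of the 175 members with an opposite-strand coding start within 1000 bases, 18 were called (10.3%, against 11.0% of all tested genes), 6 lower and 12 higher. Their coding gene was tested in 16 of these 18, and it was called in the same direction in 2 and in the opposite direction in 1. Those called the same way were CCNO with AC026704.1 and LIF with AC004264.2. Of the 164 coding genes tested in such pairs, 18 (11.0%) were called, against 13.1% of all tested protein-coding genes. Over the 164 pairs, Pearson's r between both log2 fold changes was 0.37, a description across genes that share the same 6 libraries. RefSeq windows were at hand for 167 of the 555 members (207 distinct windows). GGGCGG, the core of a GC box, was in 58.9% of the members' windows on either strand against 44.9% of all windows, TATAAA in 5.31% against 11.6% and CCAAT in 33.8% against 34.6%. The median number of CG dinucleotides was 23 in the members' windows.

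A further 5 members that fell were TMEM161B.AS1, TMPO.AS1, CHMP1B.AS1, NRSN2.AS1 and TBX2.AS1. TMEM161B.AS1 starts inside TMEM161B, a membrane protein gene, 612 bases from the start of that gene. It stood at 4.95, 6.18 and 5.32 FPKM in siC and 3.04, 3.25 and 2.49 FPKM in siMSI1 (log2 fold change -0.88 ± 0.13, adjusted p = 0.00302). TMEM161B had a log2 change of -0.44 (adjusted p = 0.134), and 2 of its siMSI1 libraries were below all siC libraries. TMPO.AS1 starts inside TMPO, which encodes the lamina-associated polypeptide of the nuclear envelope, 843 bases from the start of that gene. TMPO.AS1 stood at 6.92, 6.11 and 7.16 FPKM in siC and 4.53, 4.23 and 4.29 FPKM in siMSI1 (log2 fold change -0.62 ± 0.09, adjusted p = 0.00289). TMPO stood at 44.6, 50.1 and 44.2 FPKM in siC and 36.8, 37 and 33.5 FPKM in siMSI1 and just missed the threshold (log2 -0.37, adjusted p = 0.0115). The groups lay apart in both genes. CHMP1B.AS1 lies within the exons of CHMP1B, a gene of the membrane-cutting ESCRT-III complex, and stood at 5.31, 5.6 and 5.53 FPKM in siC and 3.56, 3.59 and 3.9 FPKM in siMSI1 (log2 fold change -0.56 ± 0.08, adjusted p = 0.00316). CHMP1B had a log2 change of -0.32 (adjusted p = 0.0129). NRSN2.AS1 shares 1.48% of its exonic bases with NRSN2, which encodes a vesicle membrane protein of neurons. It stood at 7.25, 6.95 and 7.94 FPKM in siC and 4.11, 5.06 and 5.17 FPKM in siMSI1 (log2 fold change -0.62 ± 0.11, adjusted p = 0.00622), and NRSN2 at a log2 change of 0.04 (adjusted p = 0.791). TBX2.AS1, named after the T-box factor TBX2, stood at 4.26, 4.35 and 4.27 FPKM in siC and 2.64, 2.85 and 3.18 FPKM in siMSI1 (log2 fold change -0.56 ± 0.10, adjusted p = 0.00639), and TBX2 stood at 0.925 FPKM on average (log2 -0.16, adjusted p = 0.672). Each of TMEM161B.AS1 and TMPO.AS1 was called in 2, and each of CHMP1B.AS1, NRSN2.AS1 and TBX2.AS1 in 1, of the 6 fits with 1 library left out.

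The remaining lower calls carried clone names. AL391069.2 (ZNF687-AS1 in GENCODE 44) stood at 3, 3.2 and 3.02 FPKM in siC and 1.96, 1.23 and 1.12 FPKM in siMSI1 (log2 fold change -1.09 ± 0.20, adjusted p = 0.0074), while ZNF687, a zinc finger gene with a start 382 bases away, had a log2 change of 0.13 (adjusted p = 0.31). AP002387.1 lies inside the region of DHCR7, the last enzyme of cholesterol synthesis, with no exonic base in its exons. It stood at 13.4, 11.4 and 14.5 FPKM in siC and 8.28, 6.51 and 8.5 FPKM in siMSI1 (log2 fold change -0.75 ± 0.13, adjusted p = 0.00566). AL441992.1 (ZDHHC12-DT) starts 308 bases from ZDHHC12, a palmitoyltransferase gene, and had the smallest fall, with 11 ± 0.686 FPKM in siC and 7.64 ± 0.864 FPKM in siMSI1 (SD, n = 3, log2 fold change -0.52 ± 0.10, adjusted p = 0.00841). Here the 2 neighboring coding genes, ZNF687 and ZDHHC12, did not pass the test. AP002387.1 was called in 2, and each of AL391069.2 and AL441992.1 in 1, of the 6 fits with 1 library left out.

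Of the 29 genes that rose, AC113189.1 rose most, but it reached a mean of 2 FPKM only in siMSI1. It lies at chr17:7436557-7437523, minus strand, entirely within exons of TMEM102, and its start is 750 bases from that of FGF11, a gene of the fibroblast growth factor homologs. It stood at 0.612, 0.845 and 1.28 FPKM in siC and 7.47, 5.13 and 8.09 FPKM in siMSI1. The groups were far apart, with the lowest siMSI1 library above the highest siC library (log2 fold change 2.82 ± 0.26, adjusted p = 0.000571). The reads behind it were few, 3 to 6 in siC and 22 to 38 in siMSI1. TMEM102 stood at 1.79, 1.87 and 2.19 FPKM in siC and 2.23, 1.68 and 2.26 FPKM in siMSI1 (log2 0.07, adjusted p = 0.786), and its groups overlapped. FGF11 was below the level for the test, at 0.06, 0.0894 and 0.125 FPKM in siC and 0.293, 0.26 and 0.125 FPKM in siMSI1. AC113189.1 was called in 6 of the 6 fits with 1 library left out.

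AC004264.2 (LIF-AS2) lies beside and partly across LIF, which encodes leukemia inhibitory factor, a cytokine of stem cells and glia. It stood at 0.588, 0.627 and 1.4 FPKM in siC and 3.16, 3.07 and 3.68 FPKM in siMSI1 (log2 fold change 1.90 ± 0.29, adjusted p = 0.00351) with 7 to 16 reads in siC. LIF rose as well, from 7.71 ± 0.313 to 14.6 ± 0.328 FPKM (mean ± SD, n = 3, log2 fold change 0.91 ± 0.07, adjusted p = 0.000274). Both genes had groups that did not overlap, but AC004264.2 reached a mean of 2 FPKM only in siMSI1. AC004264.2 was called in 1 of the 6 fits with 1 library left out (adjusted p 0.00121 to 0.0145). AL683820.1, one of the members just inside the limit, had no position in GENCODE 44 and stood at 0.709, 0.848 and 1.4 FPKM in siC and 2.48, 3.24 and 3.37 FPKM in siMSI1 (log2 fold change 1.57 ± 0.24, adjusted p = 0.0037). It rested on 9 to 17 reads in siC and reached a mean of 2 FPKM only in siMSI1. AL683820.1 was called in 2 of the 6 fits with 1 library left out.

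A group of higher genes lay wholly inside exons of coding genes that rose as well. The strand setting of the read counting is not given, and without it the reads of both genes cannot be told apart. AC005277.1 lies in ARHGAP44. It stood at 14.9, 13.2 and 14.9 FPKM in siC and 29.6, 26.4 and 34.3 FPKM in siMSI1 (log2 fold change 1.06 ± 0.11, adjusted p = 0.000632). ARHGAP44 stood at 30.8, 28 and 29.5 FPKM in siC and 54.7, 53.4 and 55.4 FPKM in siMSI1 (log2 fold change 0.89 ± 0.06, adjusted p = 0.000247). In this pair the rise of both RNAs was close, and every siMSI1 library was above every siC library. AL160408.2 lies in IRF2BP2, a transcriptional corepressor gene, and stood at 1.25, 1.2 and 1.71 FPKM in siC and 3.62, 3.63 and 3.52 FPKM in siMSI1 (log2 fold change 1.33 ± 0.15, adjusted p = 0.001), where IRF2BP2 had a log2 change of 0.65 (adjusted p = 0.000522). AC087292.1 lies in ANKFY1, an endosomal protein gene, and stood at 3.52, 2.81 and 2.44 FPKM in siC and 6.36, 5.81 and 6.26 FPKM in siMSI1 (log2 fold change 1.06 ± 0.14, adjusted p = 0.00162), where ANKFY1 had a log2 change of 0.47 (adjusted p = 0.00307). AC008443.2 lies in TRIM41, a ubiquitin ligase gene, and stood at 1.89, 1.37 and 1.47 FPKM in siC and 3, 3.64 and 3.44 FPKM in siMSI1 (log2 fold change 1.05 ± 0.15, adjusted p = 0.00258), where TRIM41 had a log2 change of 0.47 (adjusted p = 0.00914). In these last 3 pairs the log2 fold change of the antisense gene exceeded that of the coding gene, and the ratio of both was not called. AC005277.1, AL160408.2 and AC087292.1 were called in all 6 fits with 1 library left out, and AC008443.2 in 4. AL160408.2 and AC008443.2 reached a mean of 2 FPKM only in siMSI1. AC087292.1 also overlaps the region of CYB5D2 on its own strand, so reads of both can be shared.

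Over all called members, 34 shared exonic bases with an opposite-strand coding gene, and this gene was tested in 33. It was called in the same direction in 11, 10 of them with both genes higher, and in the opposite direction in 2. The share called among the partner coding genes of all members was 75 of 440 tested (17.0%), 39 lower and 36 higher. Among all tested protein-coding genes it was 13.1%. In one of the 10, FUT8.AS1 and FUT8, which encodes the enzyme of core fucosylation, the antisense gene stood at 1.27, 1.6 and 1.33 FPKM in siC and 2.41, 3.21 and 2.88 FPKM in siMSI1 (log2 fold change 0.97 ± 0.15, adjusted p = 0.00397) and FUT8 rose by less (log2 fold change 0.43 ± 0.08, adjusted p = 0.0098). FUT8.AS1 was called in 2 of the 6 fits with 1 library left out.

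**Figure D4:**
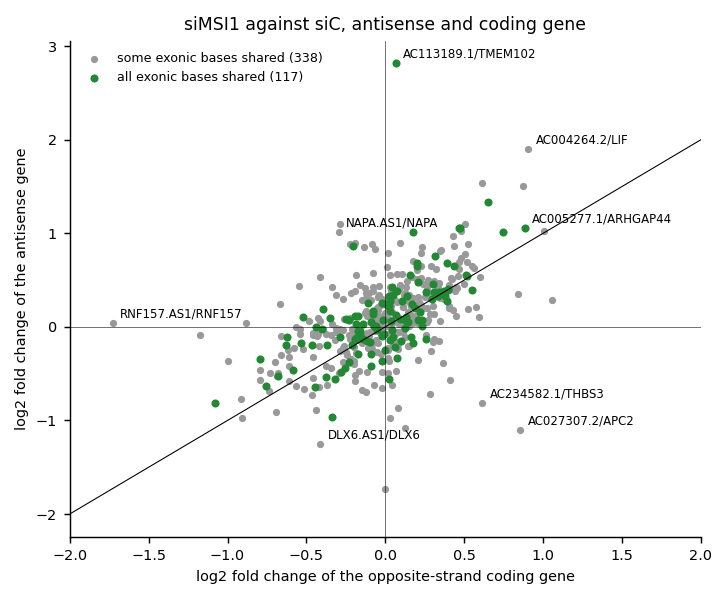
Log2 fold change of the antisense gene (vertical axis) against that of the opposite-strand coding gene that shares most of its exonic bases (horizontal axis), siMSI1 against siC, each point a pair and the line marking equal change. The 117 pairs with all exonic bases shared are green and the 338 with some shared are grey, and AC113189.1, AC027307.2 and RNF157.AS1 lie far from the line.

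Members with an exonic overlap tended to lie on the same side of 0 as their coding gene. Among the 117 pairs in which all exonic bases of the member lay in exons of 1 coding gene, 37 had both values below 0 and 51 both above 0, and Pearson's r of the log2 fold changes was 0.63. Among the 338 pairs with only some shared bases, the counts were 103 and 138, and r was 0.47. Among the 91 pairs set by the symbol (the suffix AS after the name of a gene), 31 were both below and 29 both above 0, and r was 0.43. These values are given as descriptions across genes of the same 6 libraries. Without the strand setting of the counting, reads of a member and its coding gene in shared exons cannot be told apart. The part of such reads in these values was not tested. Of the 90 tested sense genes by symbol, 17 (18.9%) were called, against 13.1% of all tested protein-coding genes. Of the 17 members whose sense gene by symbol was called, 2 were called themselves, DLX6.AS1 and FUT8.AS1. Among all members 7.57% were called, and among all tested genes 11.0%. Of these 17 members, 15 lay on the same side of 0 as the sense gene.

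Whether the antisense gene changed by another amount than its sense gene was tested on the log2 ratio of both in each library. Of the 255 antisense and sense pairs defined by symbol, 1 (0.392%) was called, and it was a pair with a member. This was RNF157.AS1 with RNF157, a ubiquitin ligase gene of neurons. RNF157.AS1 stood at 5.09, 4.92 and 5.33 FPKM in siC and 4.52, 4.98 and 6.5 FPKM in siMSI1, with overlapping groups (log2 0.04, adjusted p = 0.845). RNF157 stood at 1.09, 0.822 and 1.19 FPKM in siC and 0.191, 0.225 and 0.312 FPKM in siMSI1, and all siMSI1 libraries were below all siC libraries (log2 fold change -1.73 ± 0.32, adjusted p = 0.00774). The log2 ratio rose by 1.77 ± 0.14 (adjusted p = 0.00106). The call was lost with 1 in place of 0.1 added to each FPKM, with no filter on low values and without siC replicate 3, and at a filter of 1 FPKM the pair was not tested. At an unadjusted p under 0.05 there were 52 pairs.

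The same test on pairs set by position, chosen after the data had been seen, took the opposite-strand coding gene with the most shared exonic bases. It called 3 of 1047 pairs (0.287%), all 3 with a member, and 122 pairs had an unadjusted p under 0.05. These were AC113189.1 with TMEM102 (log2 ratio 2.75 ± 0.21, adjusted p = 0.00364), RNF157.AS1 with RNF157 (1.77 ± 0.15, adjusted p = 0.00411) and AC027307.2 with APC2 (-1.96 ± 0.20, adjusted p = 0.00894). Without siC replicate 3, 1 of them was called, and without any other library none was.

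AC027307.2 and APC2 were called in opposite directions. APC2 is the neuronal relative of the tumor suppressor APC and acts in Wnt signaling and on microtubules. AC027307.2 is a single exon at chr19:1457670-1458580, minus strand, with 42.9% of its bases in exons of APC2. It stood at 8.87, 8.49 and 8.32 FPKM in siC and 3.95, 3.18 and 4.82 FPKM in siMSI1 (log2 fold change -1.10 ± 0.14, adjusted p = 0.00164). APC2 stood at 11, 11.2 and 12.7 FPKM in siC and 20.1, 20.6 and 22.7 FPKM in siMSI1 (log2 fold change 0.86 ± 0.08, adjusted p = 0.000579). Neither gene had overlapping groups, and the antisense gene fell while the coding gene rose. AC027307.2 was called in 5 of the 6 fits with 1 library left out.

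The other pair called in opposite directions was AC091729.3 (ZFAND2A-DT) with ZFAND2A, a gene of the stress response that encodes a proteasome-associated protein. AC091729.3 starts inside ZFAND2A, 385 bases from the start of that gene. It stood at 6.9, 7.51 and 7.99 FPKM in siC and 4.57, 5.79 and 4.66 FPKM in siMSI1 (log2 fold change -0.57 ± 0.11, adjusted p = 0.00957). ZFAND2A stood at 12.3, 12.5 and 13.4 FPKM in siC and 15.5, 18.1 and 17.4 FPKM in siMSI1 (log2 fold change 0.41 ± 0.08, adjusted p = 0.00918). AC091729.3 was called in 1 of the 6 fits with 1 library left out (adjusted p 0.00664 to 0.0349). The log2 ratio of the pair fell by 0.98 and did not pass the threshold (adjusted p = 0.0735 by position). A like arrangement of values was seen in AC234582.1 (THBS3-AS1) and THBS3, which encodes a thrombospondin. AC234582.1 stood at 6.28, 7.26 and 8.15 FPKM in siC and 4.02, 3.68 and 4.49 FPKM in siMSI1 (log2 fold change -0.81 ± 0.12, adjusted p = 0.00304), and THBS3 at 2.43, 2.13 and 2.8 FPKM in siC and 3.8, 3.38 and 4.22 FPKM in siMSI1 (log2 0.62, adjusted p = 0.0145). The groups of both genes lay apart, THBS3 did not pass the threshold, and the ratio had an adjusted p of 0.0118 by position. AC234582.1 was called in 2 of the 6 fits with 1 library left out.

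Among genes that rose, NAPA.AS1 and AC115618.1 stood beside coding genes with values below 0. NAPA encodes alpha-SNAP, which takes apart SNARE complexes after membrane fusion. NAPA.AS1 stood at 2.15, 1.52 and 1.69 FPKM in siC and 3.15, 3.67 and 4.3 FPKM in siMSI1 (log2 fold change 1.02 ± 0.17, adjusted p = 0.00454). NAPA stood at 15.1, 14.2 and 16 FPKM in siC and 11.5, 11.8 and 13.6 FPKM in siMSI1 (log2 -0.30, adjusted p = 0.0434), and the log2 ratio of both, 1.31 ± 0.20, missed the threshold (adjusted p = 0.0384 by symbol). KPTN, an actin-associated protein gene that starts 63 bases from NAPA-AS1 in RefSeq, stood at 8.14, 8.12 and 9.33 FPKM in siC and 9.23, 9.88 and 9.51 FPKM in siMSI1 (log2 0.16, adjusted p = 0.185). Thus NAPA.AS1 was called while neither coding gene was. It was called in 2 of the 6 fits with 1 library left out (adjusted p 0.00781 to 0.0176). AC115618.1 starts inside RBM3, a cold-inducible RNA-binding protein gene, 411 bases from the start of that gene. It stood at 1.95, 2.01 and 2.66 FPKM in siC and 4.57, 4.31 and 5.58 FPKM in siMSI1 (log2 fold change 1.10 ± 0.15, adjusted p = 0.00239), and RBM3 at 58, 61.7 and 60.5 FPKM in siC and 49.3, 51.9 and 46.3 FPKM in siMSI1 (log2 -0.29, adjusted p = 0.0182).

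The windows of NAPA-AS1 and KPTN are printed because they overlap around both starts. Capitals mark the 162 bases in both windows (chr19:47484032-47484331, plus strand and chr19:47484170-47484469, minus strand, GRCh38.p14), read on opposite strands.
NAPA-AS1: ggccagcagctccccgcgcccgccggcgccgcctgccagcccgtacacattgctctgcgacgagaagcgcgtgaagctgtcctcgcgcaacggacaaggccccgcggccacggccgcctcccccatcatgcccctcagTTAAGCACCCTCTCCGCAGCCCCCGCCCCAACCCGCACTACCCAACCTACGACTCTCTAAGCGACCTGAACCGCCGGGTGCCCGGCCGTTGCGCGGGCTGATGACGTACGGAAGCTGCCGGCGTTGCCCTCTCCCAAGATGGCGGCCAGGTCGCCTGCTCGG
KPTN: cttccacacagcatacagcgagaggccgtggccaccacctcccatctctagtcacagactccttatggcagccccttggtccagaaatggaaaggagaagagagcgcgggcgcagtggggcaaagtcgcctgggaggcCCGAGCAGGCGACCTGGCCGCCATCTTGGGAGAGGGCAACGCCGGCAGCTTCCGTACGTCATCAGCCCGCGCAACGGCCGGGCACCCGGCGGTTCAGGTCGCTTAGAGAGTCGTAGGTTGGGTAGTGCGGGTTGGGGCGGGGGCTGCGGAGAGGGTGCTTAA
Both windows held 1 GGGCGG within the shared bases and no TATAAA.

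The other higher genes named by size were of several kinds. AL357992.1 (UST-AS2), a gene of 130 bases in the region of the sulfotransferase gene UST, stood at 18, 17 and 27.3 FPKM in siC and 43.3, 59.9 and 48.2 FPKM in siMSI1 (log2 fold change 1.30 ± 0.20, adjusted p = 0.005). This gene is shorter than a read of 150 bases, and its FPKM rested on only 35 to 102 reads per library. LINC01181, a long noncoding RNA gene that overlaps no coding gene of the opposite strand, stood at 1.92, 1.59 and 1.88 FPKM in siC and 4.03, 5.08 and 3.38 FPKM in siMSI1 (log2 fold change 1.15 ± 0.16, adjusted p = 0.00244). Each had groups that lay apart. PRR34.AS1 stood at 4.34, 4.3 and 5.15 FPKM in siC and 8.44, 9.07 and 9.17 FPKM in siMSI1 (log2 fold change 0.94 ± 0.09, adjusted p = 0.000673) and was called in 6 of the 6 fits with 1 library left out. It overlaps MIRLET7BHG, the host gene of a let-7 microRNA, on the same strand, so reads of both can be shared. PRR34 was near 0, with 0.221 FPKM on average. AC007292.3, which shares 3.64% of its exonic bases with MPND, stood at 2.24, 2.79 and 1.95 FPKM in siC and 4.18, 5.13 and 3.9 FPKM in siMSI1 (log2 fold change 0.90 ± 0.16, adjusted p = 0.00623), and MPND had a log2 change of -0.20 (adjusted p = 0.245). AC130456.5, which lies almost wholly in exons of the phosphodiesterase gene GDE1, stood at 1.7, 1.73 and 1.91 FPKM in siC and 3.19, 3.44 and 3.55 FPKM in siMSI1 (log2 fold change 0.89 ± 0.11, adjusted p = 0.00133), with GDE1 at 0.09 (adjusted p = 0.307). AC130456.5 was called in 6 of the 6 fits with 1 library left out, AL357992.1 in 1, LINC01181 in 4 and AC007292.3 in 2. PDCD4.AS1, chosen after its values were seen, rose from 6.06 ± 0.732 to 11.3 ± 1.41 FPKM (SD, n = 3, log2 fold change 0.88 ± 0.12, adjusted p = 0.00224), and PDCD4, an inhibitor of translation whose start is 458 bases away, had a log2 change of 0.48 (adjusted p = 0.0262).

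The most abundant members lay across very abundant coding genes. AC006064.4 lies wholly within exons of GAPDH, the glycolytic enzyme, at chr12:6537794-6538370, minus strand. It stood at 408, 381 and 547 FPKM in siC and 526, 226 and 614 FPKM in siMSI1 (log2 -0.08, adjusted p = 0.911). GAPDH stood at 1804, 1703 and 1907 FPKM in siC and 1695, 1628 and 2084 FPKM in siMSI1. The antisense gene thus had 25% of the FPKM of GAPDH on average, and siMSI1 replicate 2 was the lowest library of both. Next came AC011603.3 (TUBA1B-AS1), across TUBA1B, an alpha-tubulin gene, with 194, 181 and 242 FPKM in siC and 189, 152 and 221 FPKM in siMSI1 (log2 -0.14, adjusted p = 0.555). AL133415.1, across the intermediate filament gene VIM, stood at 159, 164 and 205 FPKM in siC and 175, 99.6 and 201 FPKM in siMSI1 (log2 -0.20, adjusted p = 0.621). Its siMSI1 replicate 2 was again the lowest of the 6 libraries. AC093484.4 in the ubiquitin gene UBB stood at 86.6, 91.7 and 111 FPKM in siC and 137, 73.8 and 156 FPKM in siMSI1 (log2 0.28, adjusted p = 0.524), and AC018761.2 across PRDX2, a peroxiredoxin gene, at 90, 107 and 132 FPKM in siC and 86.9, 39.4 and 97.4 FPKM in siMSI1 (log2 -0.64, adjusted p = 0.249). In each of these 5 members, siMSI1 replicate 2 was the lowest library, and it was the lowest in the coding genes GAPDH, TUBA1B, VIM and PRDX2 too, but not in UBB.

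AL138963.3, the only called gene among the 10 most abundant, lies within exons of TPT1, which encodes a growth-associated protein. It stood at 59, 74.7 and 73.1 FPKM in siC and 106, 118 and 107 FPKM in siMSI1 (log2 fold change 0.68 ± 0.10, adjusted p = 0.00304). TPT1 stood at 57.4, 58.6 and 58 FPKM in siC and 71.7, 83.7 and 73.6 FPKM in siMSI1 (log2 fold change 0.39 ± 0.07, adjusted p = 0.00815). Both rose, with no overlap between groups, and AL138963.3 was called in 4 of the 6 fits with 1 library left out. The other 4 of the 10 were AC093503.2 in CALM3 (log2 -0.07), AC022966.2 in TIMP2 (0.01), AC015674.1 in KPNB1 (-0.03) and AC005944.1 in AES (0.08), with adjusted p between 0.677 and 0.988, and the sign of each turned when some library was left out. AC125257.2 in ACLY, the enzyme that makes acetyl-CoA for lipid synthesis, was picked after its values were seen. It rose from 41.6 ± 2.13 to 61.3 ± 6.77 FPKM (SD, n = 3, log2 fold change 0.55 ± 0.09, adjusted p = 0.00462), and ACLY rose by 0.51 on the log2 scale (adjusted p = 0.00305). AC125257.2 is only 156 bases long, and its FPKM rested on 92 to 157 reads per library. It was called in 2 of the 6 fits with 1 library left out.

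**Figure D5:**
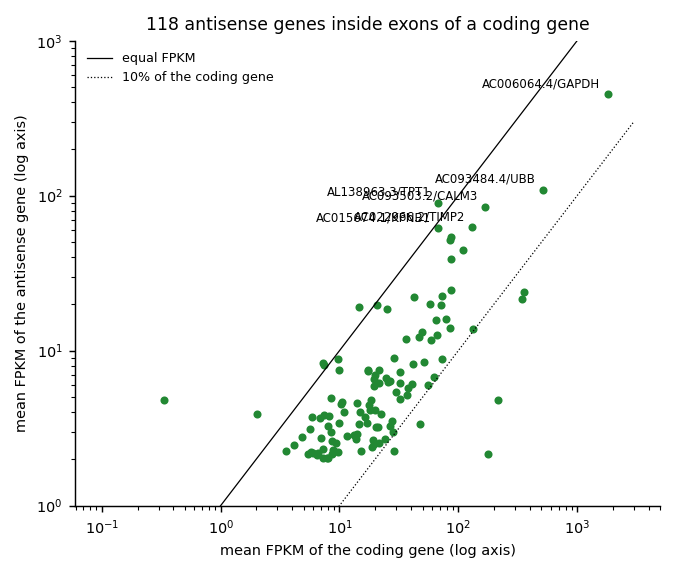
Mean FPKM of the 118 antisense genes that lie wholly inside exons of 1 coding gene (vertical log axis) against that of the coding gene (horizontal log axis), each point a pair. The solid line marks equal FPKM and the dotted line 10% of the coding gene, and most points lie between them, AC006064.4 in GAPDH at the top.

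In all, 118 members lay wholly within exons of 1 opposite-strand coding gene. Their FPKM was 27.1% of that of the coding gene in the median, with a middle range from 18.9% to 42.2%, and 6 members exceeded their coding gene. By library the median share was 24.9%, 23.6% and 28.8% in siC and 31.5%, 25.3% and 31.0% in siMSI1, so the groups overlapped. Pearson's r of both log2 levels was 0.73 across the 118 genes. Of these members, 39 had their lowest value in siMSI1 replicate 2 and 41 their highest in siMSI1 replicate 3, against 98 and 126 of the other 424 placed members. The libraries were prepared with strand information, but the strand setting of the read counting is not given in the sources used here, and without it the reads of an antisense gene inside an exon and of the coding gene cannot be told apart. The part of such reads in these values was not tested. Of 45 antisense genes of the table inside exons of 1 coding gene, with gene models of the same length in GENCODE 44, 42 had reads. Of the 118 members, 8 (6.78%) were called, 1 lower and 7 higher, and of the 121 members with less than 10% of their exonic bases in opposite-strand exons, 11 (9.09%) were called, 7 lower and 4 higher. Both shares were near that of all members, 7.57%, and under that of all tested genes, 11.0%, and the difference in direction was not tested.

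A list of studied antisense RNAs, which did not include DLX6.AS1, held 8 members, of which 1, TMPO.AS1, was called. The share called was 7.57% of all members and 11.0% of all tested genes. FGD5.AS1, an abundant cytoplasmic RNA, stood at 52.6, 54.4 and 49.3 FPKM in siC and 45.2, 46.6 and 43.1 FPKM in siMSI1 (log2 fold change -0.21 ± 0.07, adjusted p = 0.0536). Its 3 siMSI1 libraries were below all siC libraries, and FGD5 itself was hardly detected (0.0146 FPKM on average). TUG1, a widely expressed RNA that binds chromatin regulators, stood at 36.4, 39.4 and 34.2 FPKM in siC and 39.8, 38.2 and 34.2 FPKM in siMSI1 (log2 fold change 0.03 ± 0.08, adjusted p = 0.84). The groups overlapped, and MORC2, whose start lies 471 bases away, had a log2 change of 0.28 (adjusted p = 0.019). AGAP2.AS1 stood at 44.5, 42.8 and 47.4 FPKM in siC and 32.8, 36.1 and 44 FPKM in siMSI1 (log2 fold change -0.26 ± 0.11, adjusted p = 0.117), far above AGAP2, a GTPase regulator gene at 1.15 FPKM on average. NNT.AS1 had a log2 change of -0.30 ± 0.11 (adjusted p = 0.088) beside NNT, the mitochondrial transhydrogenase gene (log2 -0.24, adjusted p = 0.0442). THUMPD3.AS1 had -0.33 ± 0.12 (adjusted p = 0.0799) beside THUMPD3 (log2 0.02, adjusted p = 0.898), and DLEU2, which contains MIR15A and MIR16.1, had 0.04 ± 0.13 (adjusted p = 0.865).

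CD44.AS1 lies across CD44, the stem cell marker of the study. It stood at 6.25, 5.46 and 8.53 FPKM in siC and 5.89, 2.99 and 8.3 FPKM in siMSI1, with 23 to 72 reads and groups that overlapped (log2 fold change -0.32 ± 0.38, adjusted p = 0.576). CD44 stood at 86.6, 84.3 and 83.4 FPKM in siC and 62.4, 57.7 and 65.4 FPKM in siMSI1 and fell (log2 fold change -0.46 ± 0.07, adjusted p = 0.00303). The antisense gene varied more than the coding gene, with an SD of 2.66 FPKM around a mean of 5.73 FPKM in siMSI1, and its standard error was near the size of the change in CD44.

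The 3 members named after HOX clusters, which hold the transcription factors of body axis patterning, were not called. HOXA.AS2 stood at 4.49, 4.16 and 4.75 FPKM in siC and 5.74, 6.28 and 6.16 FPKM in siMSI1 (log2 fold change 0.43 ± 0.09, adjusted p = 0.0107), with all siMSI1 libraries above all siC libraries. HOXA3, the coding gene that it overlaps most, stood at 15.3, 15.5 and 14.7 FPKM in siC and 10.8, 10.2 and 10.1 FPKM in siMSI1 and fell (log2 fold change -0.54 ± 0.07, adjusted p = 0.00131). HOXB.AS1 had a log2 change of -0.06 ± 0.11 (adjusted p = 0.752) and HOXD.AS2 of -0.29 ± 0.17 (adjusted p = 0.263). The other 103 members with a gene in their symbol had 10 calls (9.71%), 6 lower and 4 higher. The 438 genes with a clone name had 31 calls (7.08%, against 11.0% of all tested genes), 7 lower and 24 higher. Their higher share, 5.48%, was near the 5.15% of all tested genes, and their lower share was under the 5.83% there. Some of the higher calls, such as AC113189.1 and AL683820.1, reached a mean of 2 FPKM only in siMSI1. The lower calls AC026704.1 and AL391069.2 reached it only in siC. The difference in direction was not tested. The median log2 fold change of the clone-named genes was 0.09 against 0.03 for the 103.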

How the data were processed

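Polyadenylated RNA of KNS42 cells was measured in 6 libraries of 150-base reads, 3 per group, with groups and replicate numbers taken from the labels. The authors clipped reads with cutadapt 1.14, aligned them with HISAT2 2.1.0 to hg38, sorted them with SAMtools 1.5, counted them per gene with featureCounts 1.5.3 on Ensembl 89 and deposited 1 table of FPKM per gene and library. The tool versions come from the submitters' processing notes, and the role of each from the paper's methods. The results of the authors' own comparison (log2 fold change, p-value and false discovery rate, from edgeR 3.18.1) are also in the table and were not used. The strand setting of the counting is not given in the sources used here.

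FPKM times gene length gave whole reads for 100% of the values (tolerance 0.001), so that each library's depth could be recovered. limma 3.58.1 in R 4.3.3 (lmFit, eBayes with trend and robust) was fitted to log2(FPKM + 0.1), for the 15069 genes that reached a mean of at least 0.5 FPKM, two-sided, without a block. Fold changes are on this scale, which understates the change of low genes, and errors are SE unless an SD is named. The threshold was an adjusted p of 0.01 over all tested genes. Ratios of antisense to sense genes were fitted in the same way over all pairs. Positions came from GENCODE 44 by gene identifier, and promoter windows from RefSeq (GRCh38.p14).

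On simulated data, 109 of 130 genes changed by a factor of 2 or more and 5 of 61 changed by less were called, beside 5 of 14887 unchanged genes. Every simulated gene had the same spread between libraries beyond counting. The changed genes were drawn from all tested genes (median 372 reads), not from the members (median 50.3 reads). Detection among the members alone was not simulated. The check's limit on false against true calls was widened from 5% to 15% after a first random draw exceeded it. The counts above lie within the first limit, and those of the first draw are not given here. Named genes were MSI1, the 10 members with the highest mean, up to 15 called members per direction by fold change, pairs called, members next to the limit, studied antisense RNAs, and the sense genes of all these. Members, lists and tests were chosen with earlier results of these data known. Alternatives were another added value, filter, scaling or moderation, a replicate block, voom on recovered reads, and leaving out each library. Counting precision follows the reads given beside the genes, and the number of libraries limits the rest.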

Additional observations from a re-analysis of the deposited data

How the results depend on the processing

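With any 1 library left out, 12 to 34 antisense genes were called, against 42 with all 6. All 42 kept their sign under all 16 alternatives, and 38 were called in at least 8 of them, 7 in every one, and 8 in all 6 fits with a library left out. The number called was 13 with no filter on low values and 17 with a moderation without trend and robust fitting, 11 among the members with under 10% of their exonic bases in opposite-strand exons, and 29 among those at 2 FPKM or more in both groups (both chosen after seeing the data). It stayed within 37 to 49 under the other values added, a filter of 1 FPKM, median centring, quantile scaling and voom. The same-numbered libraries' deviations from their group means had correlations of -0.066, 0.078 and 0.083, and the other combinations -0.144 to 0.070. With 3 libraries per group, these values cannot decide whether the replicate numbers pair the libraries. With a replicate block 69 genes were called, 41 of the 42 among them, and with voom and the block 75, including 32 of the 42. The cause of these differences was not tested.

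For ratios by symbol, 0 pairs were called with 1 added to each FPKM, with no filter and with a filter of 1 FPKM, and 0 to 1 with a library left out. For ratios by position, 0 were called with no filter, 1 with the plain moderation, 0 with the replicate block and 0 to 1 with a library left out. No fold change of a called gene turned its sign. Among genes not called, the log2 fold change crossed 0 with a library left out in AC005944.1 (-0.016 to 0.18), AC006064.4 (-0.35 to 0.37), AC011603.3 (-0.27 to 0.0017), AC015674.1 (-0.10 to 0.062), AC022966.2 (-0.19 to 0.32), AC093503.2 (-0.23 to 0.051), AL133415.1 (-0.41 to 0.10), CD44.AS1 (-0.65 to 0.077), DLEU2 (-0.041 to 0.14), HOXB.AS1 (-0.12 to 0.064), RNF157.AS1 (-0.10 to 0.15) and TUG1 (-0.021 to 0.092), and that of AC022966.2 was -0.019 with quantile scaling. The median member had 50.3 reads per library, a depth at which small changes can be missed.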

Other observations

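Below the limit of 2 FPKM, the antisense gene with the largest rise among the 13 called was AC113189.3, which lies next to AC113189.1 and across FGF11 on chromosome 17. It had a mean of 0.0558 FPKM in siC, which rests on 1 read in 1 of the 3 libraries, and 2.14 ± 0.886 FPKM in siMSI1 (SD, n = 3), with 7 to 15 reads per library, and it was tested only because its siMSI1 level passed the filter. CCNT2.AS1 fell from 2.48 ± 0.125 to 1.06 ± 0.329 FPKM (limma, adjusted p = 0.00613), and AC009403.1, annotated as RBM33-DT, from 2.38 ± 0.290 to 0.788 ± 0.195 FPKM (adjusted p = 0.00219). These genes were picked after their values were seen.

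Of the 6 genes left out by name, none was called by limma, 3 had an unadjusted p under 0.05, and their log2 fold changes ran from -0.63 for SNHG10 (adjusted p = 0.0196) to 0.32 for SNHG7 (adjusted p = 0.0552).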
